A study of Mus musculus with 22 samples.

Results

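Expression of 10 genes that are used to recognise macrophages was followed across the intestine of young and aged mice: Cd68, Cd163, Csf1r, Adgre1 (listed on the array under its older name Emr1), Mrc1, Cd14, C1qa, C1qb, Itgam and Itgax. They were chosen by name, from the gene name printed for each spot, and they make up 10 of the 27962 gene names on the array. The 10 genes had 15 probes among 41174, and each probe was kept apart. Whole-tissue RNA of ileum and colon from male C57BL/6 mice on chow was hybridised to 22 single-colour arrays in 6 groups. The groups were aged colon of SIRT1 iKO mice (4 arrays) and of flox control mice (3 arrays), aged ileum of SIRT1 iKO mice (4 arrays) and of flox mice (3 arrays), and young ileum of SIRT1 iKO mice (4 arrays) and of flox mice (4 arrays). Aged mice were 24 months old and young mice 6 to 8 weeks old. The labels expand neither iKO nor flox, and they name no promoter, Cre line or targeted cell type. They do not say whether the ileum and colon arrays came from the same animals.

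Intestinal macrophages lie beneath the epithelium and in the muscle layer, where they take up dying cells and microbes and respond weakly to bacterial products. In the adult gut most are replaced by monocytes from the blood, and their survival depends on the growth factor CSF1 acting through the receptor encoded by Csf1r. Cd68 encodes a glycoprotein of endosomes and lysosomes, and Adgre1 encodes F4/80, the adhesion receptor by which mouse macrophages are usually recognised. Cd163 and Mrc1 encode scavenger receptors for haemoglobin complexes and for mannose-bearing ligands. Cd14 encodes a co-receptor for bacterial lipopolysaccharide that intestinal epithelium can also express. C1qa and C1qb encode chains of C1q, the first component of the classical complement pathway. Itgam and Itgax encode the integrin chains CD11b and CD11c, which neutrophils and dendritic cells carry as well.

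The 60-base probes for C1qa and C1qb are shown because they lie in the same stretch of chromosome 4 and report on partner chains of one protein. The array annotation places them, in mm7 coordinates on the minus strand, at chr4:136274931-136274990 for C1qa and at chr4:136259100-136259159 for C1qb. Whether they lie in exons or untranslated regions was not looked up here.
C1qa probe: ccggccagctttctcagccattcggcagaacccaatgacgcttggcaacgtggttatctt
C1qb probe: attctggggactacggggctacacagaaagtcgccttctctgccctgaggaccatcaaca

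Promoters from RefSeq (GRCm38.p6, 250 bases before to 50 after the start, on the gene's strand) were found for 6 of the 10 genes, and 3 are shown because they differ in a motif of myeloid genes and belong to genes whose levels moved differently. Capitals mark GAGGAA or its reverse complement TTCCTC, the core of sites for PU.1, the transcription factor on which macrophage development depends. The promoter of Cd68 lies at chr11:69666121-69666420 on the minus strand, and the motif begins at -225 and at 29 when the start is counted as 0. The promoter of Cd163 lies at chr6:124304401-124304700 on the plus strand and holds no match. The promoter of Itgam lies at chr7:128062390-128062689 on the plus strand, with matches at -84, -15 and 32.
Cd68 promoter: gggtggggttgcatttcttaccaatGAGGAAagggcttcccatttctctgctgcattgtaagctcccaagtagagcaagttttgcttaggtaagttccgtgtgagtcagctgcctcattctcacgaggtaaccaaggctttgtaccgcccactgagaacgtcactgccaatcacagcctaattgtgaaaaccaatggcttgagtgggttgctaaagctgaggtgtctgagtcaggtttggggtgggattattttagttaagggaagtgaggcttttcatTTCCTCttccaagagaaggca
Cd163 promoter: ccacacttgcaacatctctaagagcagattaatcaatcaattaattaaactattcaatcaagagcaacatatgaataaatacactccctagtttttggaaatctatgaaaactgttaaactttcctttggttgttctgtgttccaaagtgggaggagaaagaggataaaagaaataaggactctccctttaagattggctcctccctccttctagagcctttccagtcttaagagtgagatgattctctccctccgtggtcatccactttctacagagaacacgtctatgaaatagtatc
Itgam promoter: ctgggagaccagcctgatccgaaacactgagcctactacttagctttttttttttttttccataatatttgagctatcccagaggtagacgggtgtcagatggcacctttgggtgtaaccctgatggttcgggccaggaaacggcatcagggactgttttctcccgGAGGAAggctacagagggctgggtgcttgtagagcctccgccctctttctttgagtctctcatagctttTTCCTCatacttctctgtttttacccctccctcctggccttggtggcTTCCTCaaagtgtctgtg
The motif was found in 4 of the 6 promoters and in 28.3% of 32851 mouse promoters of the same length, counting both strands. TATAAA or its reverse complement TTTATA was in none of the 6 and in 13.6% of all. A match is a run of letters and not a measured binding site, and its relation to the levels was not tested.

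All 10 genes were detected. At least 1 probe of each gene was well above background on all 22 arrays, 11 of the 15 probes were so themselves, and no spot of these genes was saturated. Levels below are log2 of the processed signal minus the 75th percentile of that array, so that 0 is the 75th percentile. That percentile was 1425.2 to 1750.6 intensity units on the colon arrays and 917.6 to 1230.8 on the ileum arrays, and 70.0% to 79.5% of spots were above background in colon against 49.6% to 61.3% in ileum. A probe was tested if some group had it above background on all of its arrays, and it passed if the limma p adjusted over all tested probes was under 0.05. Where groups are said not to overlap, the share of all tested probes that did so was not counted. Probe A_52_P570471 of Csf1r and probe A_52_P364727 of Adgre1 were above background on 6 arrays and 1 array, so they were not tested and no level is drawn from them. Sirt1, the targeted gene, did not pass between iKO and flox mice in any tissue or age. In aged colon its brighter probe A_52_P358612 averaged 0.50 ± 0.15 in iKO against 0.78 ± 0.02 in flox mice (SD, n = 4 against 3). In aged ileum it averaged 0.32 ± 0.04 in iKO against 0.82 ± 0.25 in flox mice (n = 4 against 3). In young ileum it averaged 0.70 ± 0.04 in iKO against 0.92 ± 0.24 in flox mice (n = 4 against 4). The other Sirt1 probe, A_51_P141152, differed (iKO minus flox) by -0.13 in aged colon, -0.1 in aged ileum and 0.0 in young ileum. Where these probes lie relative to the deleted part is not given in the sources used here, so they do not check the labels.

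**Figure D1:**
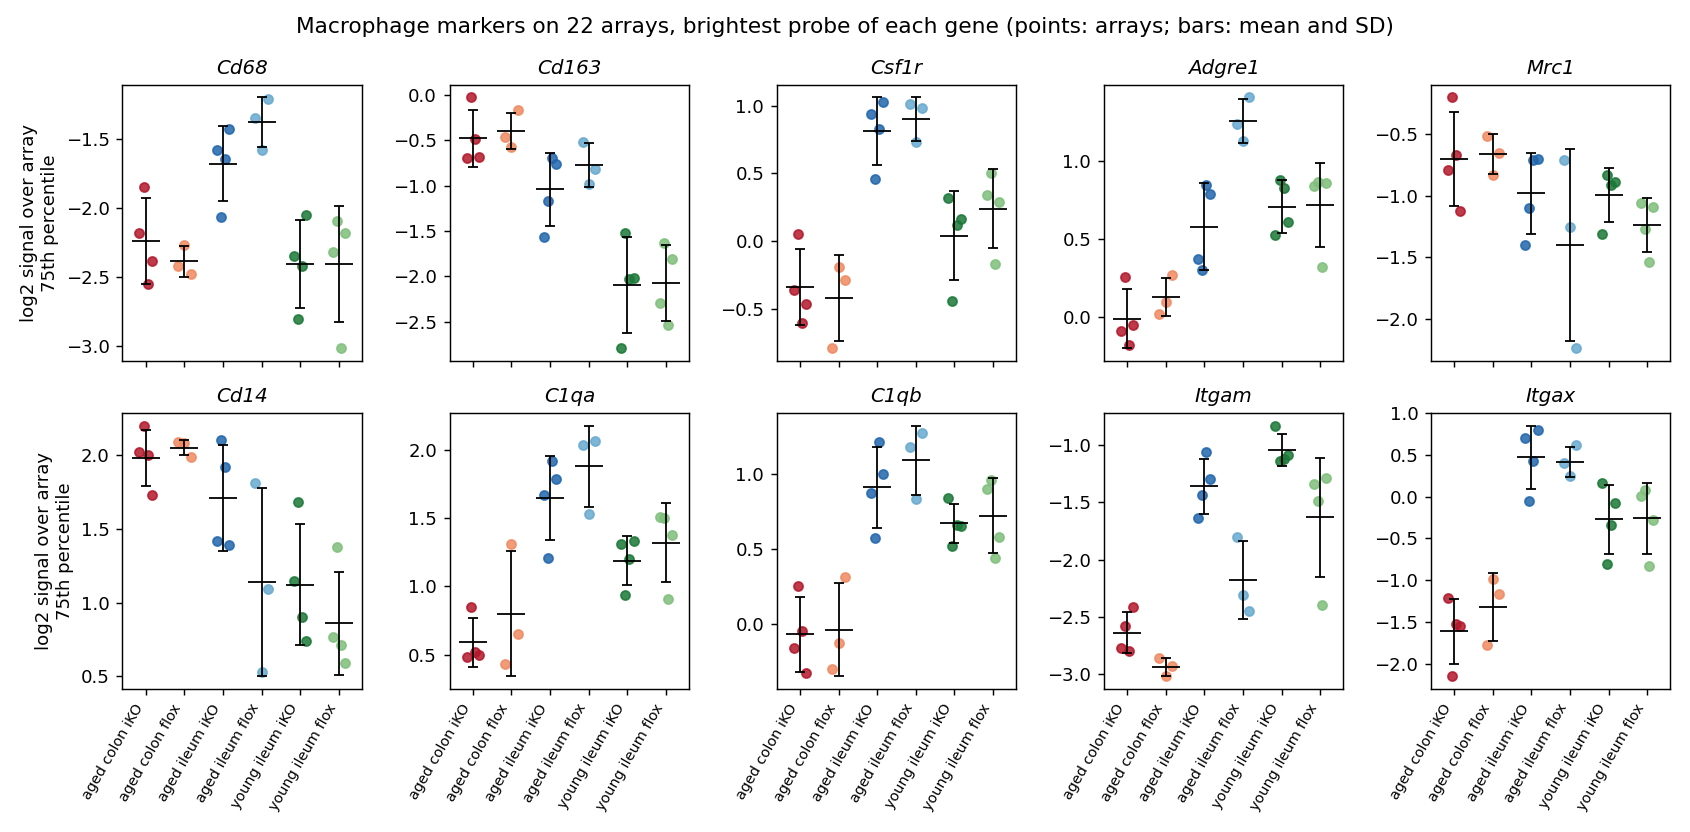
Levels of the brightest probe of each of the 10 macrophage genes on every array (log2 of signal minus the array's 75th percentile), with points for arrays and bars for the group mean and SD. Groups run left to right as aged iKO colon, aged flox colon, aged iKO ileum, aged flox ileum, young iKO ileum and young flox ileum. Cd68, Csf1r, Adgre1, C1qa, C1qb, Itgam and Itgax have lower group means in colon than in aged ileum. For Itgax these are -1.61 and -1.32 in colon against 0.47 and 0.42 in aged ileum.

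In ileum, 3 macrophage genes rose with age. Cd68 and Cd163 were higher in aged than in young ileum in both genotypes, by 1.03 and 1.29 on the log2 scale in flox mice and by 0.73 and 1.04 in iKO mice. Csf1r rose as well, at 1 of its 2 tested probes in flox mice and at both in iKO mice. Of the 12 tested probes 4 passed as higher in iKO mice and 3 in flox mice, against 5.14% and 2.98% of all tested probes, and none passed as lower. The comparison asks what changes in the ileum between 6 to 8 weeks and 24 months of age. In whole tissue, more macrophages and more RNA per macrophage cannot be told apart.

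Csf1r, at its brightest probe A_51_P365885, was at 0.94, 0.46, 0.83 and 1.03 in aged iKO ileum, against 0.32, -0.44, 0.12 and 0.16 in young iKO ileum. In flox mice it was at 1.01, 0.73 and 0.98 in aged ileum, against 0.34, 0.50, -0.17 and 0.29 in young ileum. Every aged array lay above every young array of its genotype. The difference was 0.77 ± 0.18 (SE) in iKO mice, a 1.71-fold higher signal (adjusted p = 0.0196), and 0.66 ± 0.20 in flox mice (adjusted p = 0.0554). At the dimmer probe A_52_P602091, aged iKO arrays ranged from -1.67 to -1.02 and young iKO arrays from -2.64 to -1.76. In flox mice that probe ranged from -1.21 to -0.99 on the aged arrays and from -2.35 to -1.56 on the young arrays. The groups did not overlap at this probe either, with differences of 0.86 ± 0.20 in iKO mice (adjusted p = 0.0205) and 0.80 ± 0.22 in flox mice (adjusted p = 0.0425).

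Cd68 was at -1.58, -2.07, -1.65 and -1.43 in aged iKO ileum, against -2.35, -2.81, -2.42 and -2.05 in young iKO ileum. In flox mice it was at -1.35, -1.58 and -1.21 in aged ileum, against -2.32, -2.10, -3.02 and -2.18 in young ileum. The flox groups were apart, and in iKO mice the lowest aged array lay just below the highest young array. The increase was 1.65-fold in iKO mice (0.73 ± 0.21, 95% interval 0.27 to 1.18, adjusted p = 0.0439) and 2.04-fold in flox mice (1.03 ± 0.23, interval 0.54 to 1.52, adjusted p = 0.0185).

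Cd163 was at -1.56, -1.17, -0.70 and -0.76 in aged iKO ileum, against -2.79, -1.52, -2.03 and -2.02 in young iKO ileum. In flox mice it was at -0.52, -0.98 and -0.82 in aged ileum, against -2.29, -1.63, -2.53 and -1.81 in young ileum. This scavenger receptor gave the largest age differences among the 12 tested probes in both genotypes, with one pair of iKO arrays crossing. The increase was 2.06-fold in iKO mice (1.04 ± 0.27, interval 0.45 to 1.63, adjusted p = 0.0289) and 2.45-fold in flox mice (1.29 ± 0.30, interval 0.66 to 1.93, adjusted p = 0.0204).

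The other scavenger receptor, Mrc1, gave no age difference past the test. It was at -1.40, -1.10, -0.71 and -0.70 in aged iKO ileum, against -1.31, -0.83, -0.91 and -0.89 in young iKO ileum, and at -0.71, -1.25 and -2.24 in aged flox ileum, against -1.06, -1.27, -1.54 and -1.09 in young flox ileum. The aged flox arrays were the most scattered of any group for this gene, and all groups overlapped. Its differences were 0.01 ± 0.27 in iKO mice and -0.16 ± 0.29 in flox mice (adjusted p = 0.762 in flox mice).

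Adgre1 was at 0.37, 0.30, 0.85 and 0.79 in aged iKO ileum, against 0.53, 0.88, 0.83 and 0.61 in young iKO ileum. In flox mice it was at 1.24, 1.13 and 1.41 in aged ileum, against 0.84, 0.87, 0.32 and 0.86 in young ileum. The aged flox arrays were the highest of all 22 arrays for this gene, while the iKO groups overlapped. The age difference was -0.14 ± 0.16 in iKO mice (adjusted p = 0.615) and 0.54 ± 0.17 in flox mice (adjusted p = 0.0659).

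The complement genes moved less. C1qa was at 1.67, 1.21, 1.92 and 1.79 in aged iKO ileum, against 1.31, 0.94, 1.2 and 1.33 in young iKO ileum, and at 2.04, 1.53 and 2.07 in aged flox ileum, against 1.51, 1.5, 0.91 and 1.38 in young flox ileum. C1qb was at 0.87, 0.57, 1.21 and 1.00 in aged iKO ileum, against 0.84, 0.52, 0.66 and 0.65 in young iKO ileum, and at 1.18, 0.83 and 1.27 in aged flox ileum, against 0.90, 0.96, 0.44 and 0.58 in young flox ileum. For C1qa the flox ages did not overlap, the other groups overlapped for both chains, and neither gene passed. C1qa differed by 0.45 ± 0.18 in iKO mice and 0.56 ± 0.20 in flox mice, with adjusted p of 0.126 and 0.0942. C1qb differed by 0.24 ± 0.15 in iKO mice and 0.38 ± 0.17 in flox mice, with adjusted p of 0.327 and 0.174.

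Cd14 was at 1.42, 2.10, 1.92 and 1.39 in aged iKO ileum, against 1.15, 1.68, 0.90 and 0.74 in young iKO ileum, and at 1.81, 0.53 and 1.09 in aged flox ileum, against 0.77, 1.38, 0.71 and 0.59 in young flox ileum. The aged flox arrays spanned a wider range than the young ones. The differences of 0.59 ± 0.28 in iKO mice and 0.28 ± 0.31 in flox mice did not pass (adjusted p = 0.195 and 0.595).

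The 2 integrin genes pointed in opposite directions. Itgax (probe A_51_P303424) was at 0.70, -0.05, 0.43 and 0.80 in aged iKO ileum, against 0.16, -0.81, -0.34 and -0.08 in young iKO ileum, and at 0.40, 0.25 and 0.62 in aged flox ileum, against 0.01, 0.08, -0.83 and -0.28 in young flox ileum. Its differences of 0.74 ± 0.24 in iKO mice and 0.68 ± 0.26 in flox mice missed the threshold (adjusted p = 0.068 and 0.124). Itgam differed by -0.55 ± 0.24 and -0.82 ± 0.26 in flox mice at its 2 probes (adjusted p = 0.171 and 0.0678), and by -0.32 ± 0.23 and -0.26 ± 0.24 in iKO mice (adjusted p = 0.386 and 0.525).

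Among all 22272 tested probes 11% passed in iKO mice, with 5.88% as lower, and 8.01% passed in flox mice, with 5.03% as lower. The median difference of the 12 macrophage probes was 0.52 in iKO mice and 0.55 in flox mice, against -0.02 and -0.03 over all probes, and 9 of the 12 were positive in each genotype. The summed signal of the 10 genes, in multiples of the 75th percentile, was 13.2 to 16.8 in aged iKO ileum and 12.6 to 17.6 in aged flox ileum, against 10.8 to 11.6 in young iKO ileum and 8.39 to 13 in young flox ileum.

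These age calls rest on few arrays. On the 3 slides that carried both ages of iKO ileum, the difference ran from 0.28 to 1.17 for Cd68, 0.82 to 1.62 for Cd163 and 0.13 to 1.27 for Csf1r at A_51_P365885, and on the 2 such flox slides from 0.52 to 1.74, 0.65 to 1.86 and 0.22 to 1.16. With the slide as a fixed factor, Cd68 and Cd163 differed by 0.68 and 1.00 in iKO mice (adjusted p = 0.093 and 0.0588) and by 1.07 and 1.43 in flox mice (adjusted p = 0.0611 and 0.0512), and Csf1r A_52_P602091 missed the threshold in both (adjusted p = 0.0526 in iKO and 0.115 in flox mice). Of the age calls only Csf1r A_51_P365885 in iKO mice then stayed past the test, at 0.73 (adjusted p = 0.0487), none did in flox mice, and Adgre1 in flox mice, not called without the slide, passed at 0.70 (adjusted p = 0.0489). In flox mice, Cd68 missed the threshold without aged flox replicate 1 (adjusted p = 0.0609) or 4 (adjusted p = 0.0781), and Cd163 without young flox replicate 1 (adjusted p = 0.0537) or aged flox replicate 1 (adjusted p = 0.0798) or 4 (adjusted p = 0.0647). Csf1r A_52_P602091 missed it in flox mice without any one of young flox replicates 1, 3 and 4, all 3 aged flox arrays and aged iKO replicates 3 and 4, at adjusted p from 0.057 to 0.124. In iKO mice, Cd163 missed it without young iKO replicate 1 or 3 or aged iKO replicate 3 or 4 (adjusted p from 0.0564 to 0.0845). Csf1r missed it without aged iKO replicate 1 or 4 at both probes, and at A_52_P602091 also without young iKO replicate 3 (adjusted p from 0.0527 to 0.0631). Cd68 missed it in iKO mice without any one of young flox replicates 1 and 4, young iKO replicates 1, 2 and 3, aged flox replicates 1 and 4 and aged iKO replicates 1, 3 and 4 (adjusted p from 0.0527 to 0.109). All differences kept their sign. Young arrays occupied the first 2 positions of each ileum slide and aged arrays the last 2, and the 75th percentile was 1131.6 to 1230.8 intensity units on aged arrays against 917.6 to 1115.0 on young arrays, so age, array position and this brightness cannot be told apart.

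**Figure D2:**
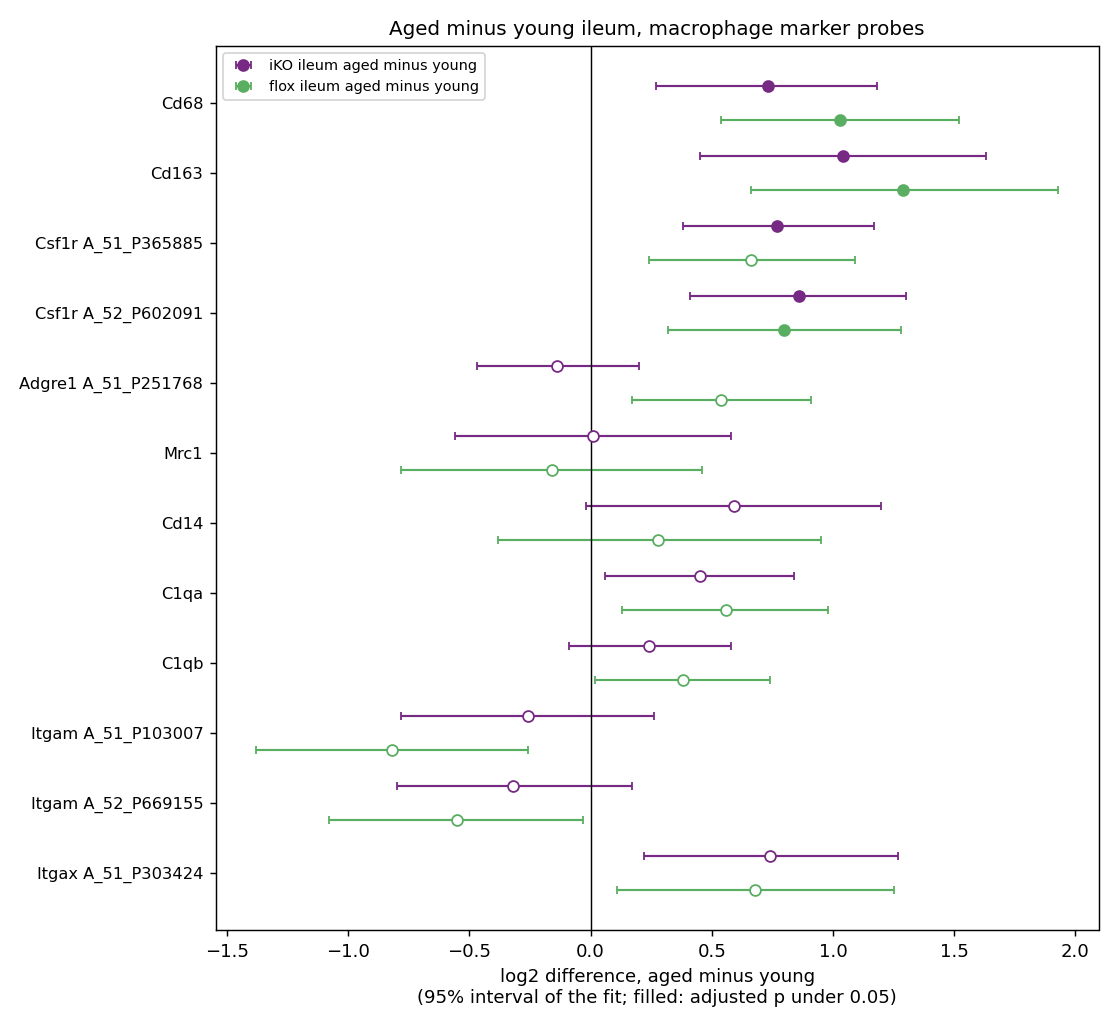
Age differences in ileum (aged minus young, log2) of the 12 tested probes, with iKO above flox for each probe and bars for the 95% interval. Filled symbols passed at an adjusted p under 0.05: Cd68, Cd163 and both Csf1r probes in iKO mice, and Cd68, Cd163 and the Csf1r probe A_52_P602091 in flox mice.

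Among other macrophage genes, Mpeg1 and Clec10a rose with age in both genotypes. Of 32 probes for 21 tested macrophage receptors and companion genes, 1 was higher in aged iKO ileum and 5 in aged flox ileum, with medians of 0.21 and 0.31. That was 3.12% of these probes in iKO and 15.6% in flox mice, against 5.14% and 2.98% of all tested probes. Mpeg1, which encodes the pore-forming protein perforin-2, was higher in both genotypes, by 0.77 ± 0.18 in iKO mice (adjusted p = 0.0186) and 0.75 ± 0.19 in flox mice (adjusted p = 0.0335). Trem2, a lipid-sensing receptor, was higher in aged flox ileum by 1.35 ± 0.27 at probe A_51_P269546 (adjusted p = 0.0115), which was above background on all ileum arrays, and differed by 0.45 ± 0.25 in iKO mice (adjusted p = 0.26). Its other probe, A_51_P269549, was above background on 3 of 3 aged flox arrays, 1 of 4 aged iKO arrays, 1 of 4 young flox arrays and no young iKO array, and entered the test through the aged flox group alone. It passed in flox mice (adjusted p = 0.0011), but the young level is at background there and no size is drawn from it. Lyve1, a hyaluronan receptor of lymphatic endothelium and tissue macrophages, was higher in aged flox ileum by 0.89 ± 0.22 and 0.78 ± 0.22 (adjusted p = 0.0289 and 0.046), against 0.51 ± 0.20 and 0.26 ± 0.20 in iKO mice (adjusted p = 0.125 and 0.429). Without single arrays, Mpeg1 missed the threshold in iKO mice (aged iKO replicates 1, 3 and 4, adjusted p from 0.052 to 0.0558) and in flox mice (young flox replicates 1 and 3, aged flox replicates 1 and 4, adjusted p from 0.0661 to 0.121), as did Lyve1 A_51_P155052 (young flox replicates 1, 3 and 4 and each aged flox array, adjusted p from 0.0583 to 0.085).

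Of 15 probes for inflammatory and alternative activation genes, 2 were higher in aged iKO ileum and 1 in aged flox ileum. Among all tested probes, 5.14% passed as higher in iKO and 2.98% in flox mice. The lectin gene Clec10a was higher by 1.13 ± 0.26 in iKO mice (adjusted p = 0.0177) and by 1.42 ± 0.28 in flox mice (adjusted p = 0.0118), and the cytokine gene Tnf by 1.53 ± 0.44 in iKO mice (adjusted p = 0.0408). Of 19 probes for genes of lysosomes and of the uptake of dying cells, Cd9 passed at probe A_51_P320626 in both genotypes (1.16 ± 0.18 and 0.90 ± 0.19, adjusted p = 0.0022 in iKO and 0.016 in flox mice), while its other probe gave -0.02 and 0.12. The receptor tyrosine kinase gene Axl passed in flox mice (0.75 ± 0.16, adjusted p = 0.0168). Of 19 probes for the CSF1 axis and macrophage transcription factors none passed in flox mice, and in iKO mice the GM-CSF receptor gene Csf2ra was higher by 0.39 ± 0.10 (adjusted p = 0.0254) and 1 of 4 probes of the transcription factor gene Maf differed by -0.93 ± 0.23 (adjusted p = 0.0238). Spi1, which encodes PU.1, was above background on no ileum array. In flox mice, Cd9 and Axl missed the threshold without aged flox replicate 1 or 4 (adjusted p from 0.0506 to 0.0747). In iKO mice, Clec10a missed it without young iKO replicate 3 (adjusted p = 0.0569), Maf without young iKO replicate 3 or aged iKO replicate 2 (0.0732 and 0.053), Csf2ra without young iKO replicate 2 or 3 or aged iKO replicate 1, 3 or 4 (0.0532 to 0.0736), and Tnf without young flox replicate 1 or 4, young iKO replicate 2 or 3 or any aged iKO array (0.0502 to 0.118).

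Some probes of other cell types passed with age too, and the part of these cell types in these results was not tested. Among all tested probes, 5.14% passed as higher and 5.88% as lower in iKO mice, and 2.98% and 5.03% in flox mice. A few calls in a short list were not read as movement of a cell type. All 9 epithelial probes were lower on average in aged ileum in both genotypes (medians of -0.26 in iKO and -0.24 in flox mice), with Epcam past the test in each (-0.49 ± 0.10 and -0.45 ± 0.11, adjusted p = 0.0121 in iKO and 0.0281 in flox mice, the second missing the threshold without young flox replicate 1, 3 or 4 or aged flox replicate 1 or 4, at 0.059 to 0.107). The summed epithelial signal was 1470 to 1580 in aged iKO ileum and 1460 to 1490 in aged flox ileum, against 1570 to 1990 in young iKO ileum and 1610 to 1850 in young flox ileum. Endothelial probes passed as higher in 2 of 5 cases in flox mice and in none in iKO mice: Kdr differed by 0.59 ± 0.16 in flox mice (adjusted p = 0.0392), and Pecam1 passed (adjusted p = 0.0481) with 1 of 4 young flox arrays above background. Both missed the threshold without any one of several arrays (adjusted p up to 0.144 and 0.162, each without aged flox replicate 1). The summed endothelial signal was 1.04 to 1.55 in aged iKO and 1.26 to 1.5 in aged flox ileum, against 0.787 to 1.2 in young iKO and 0.898 to 1.16 in young flox ileum. Smooth muscle and fibroblast probes passed as lower in 2 of 12 cases in iKO mice, for the collagen genes Col3a1 (-1.24 ± 0.26, adjusted p = 0.0111) and Col1a1 (-0.91 ± 0.22, adjusted p = 0.0217, and 0.0503 to 0.0731 without young iKO replicate 3 or aged iKO replicate 1 or 4), and in none in flox mice. Of 5 mast cell and eosinophil probes, Kit was higher in iKO mice (0.50 ± 0.12, adjusted p = 0.018, and 0.0561 and 0.0586 without young iKO replicate 3 or aged iKO replicate 1). None of 6 adipocyte probes, 7 dendritic cell probes, 3 neutrophil probes, 13 T and natural killer cell probes or 6 B cell probes passed with age in either genotype. The dendritic cell genes Cd207, Clec9a and Siglech were above background on no ileum array, and the summed dendritic cell signal was 2.56 to 4.74 in aged iKO and 1.98 to 3.65 in aged flox ileum, against 2.10 to 3.72 in young iKO and 1.63 to 3.18 in young flox ileum.

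Colon held less of most macrophage transcripts than ileum in aged mice. Of 13 tested probes, 9, for Csf1r, Cd68, Adgre1, C1qa, C1qb, Itgam and Itgax, were lower in colon in both genotypes, against 17.7% of all tested probes in iKO mice and 12% in flox mice. The fall was largest for Itgax, which was 4.23-fold lower in iKO mice and 3.34-fold lower in flox mice. Cd14 in flox mice and Cd163 in iKO mice were the exceptions, each higher in colon, and Mrc1 did not pass in either genotype.

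Csf1r was at -0.36, 0.05, -0.60 and -0.46 in aged iKO colon and at -0.79, -0.19 and -0.29 in aged flox colon, below every aged ileum array. It was 2.23-fold lower than in ileum in iKO mice (-1.16 ± 0.18, adjusted p = 0.000319) and 2.51-fold lower in flox mice (-1.33 ± 0.21, adjusted p = 0.000605). The second Csf1r probe differed by -1.02 ± 0.18 in iKO mice (adjusted p = 0.000787) and -1.31 ± 0.21 in flox mice (adjusted p = 0.000725). Levels at the brightest probe A_51_P365885 ran from the aged ileum groups, at means of 0.81 ± 0.25 in iKO and 0.90 ± 0.16 in flox mice, through the young ileum groups, at 0.04 ± 0.33 and 0.24 ± 0.29, to the colon groups, at -0.34 ± 0.28 and -0.42 ± 0.32 (SD).

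Cd68 was at -2.18, -1.85, -2.55 and -2.39 in aged iKO colon and at -2.42, -2.27 and -2.48 in aged flox colon. The flox colon arrays lay below all flox ileum arrays, and 1 iKO colon array lay above the lowest iKO ileum array. The differences were -0.56 ± 0.17 in iKO mice (adjusted p = 0.0178) and -1.01 ± 0.19 in flox mice (adjusted p = 0.00223). Adgre1 was at -0.09, 0.26, -0.18 and -0.05 in aged iKO colon and at 0.02, 0.10 and 0.27 in aged flox colon, below every ileum array of its genotype and age. It was 1.51-fold lower in iKO mice (-0.59 ± 0.14, adjusted p = 0.00623) and 2.19-fold lower in flox mice (-1.13 ± 0.17, adjusted p = 0.000446).

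C1qa was at 0.48, 0.85, 0.52 and 0.50 in aged iKO colon and at 0.43, 1.31 and 0.65 in aged flox colon. C1qb was at -0.16, 0.25, -0.05 and -0.33 in aged iKO colon and at -0.30, -0.13 and 0.31 in aged flox colon. Both chains were lower on every colon array than on every ileum array of the same genotype and age. C1qa was 2.09-fold lower in iKO mice (-1.06 ± 0.21, adjusted p = 0.00171) and 2.12-fold lower in flox mice (-1.08 ± 0.24, adjusted p = 0.00546). C1qb was 1.98-fold lower in iKO mice (-0.99 ± 0.18, adjusted p = 0.00102) and 2.19-fold lower in flox mice (-1.13 ± 0.21, adjusted p = 0.00175).

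Itgax was at -1.21, -2.15, -1.52 and -1.55 in aged iKO colon and at -1.78, -0.99 and -1.17 in aged flox colon, below every aged ileum array of either genotype. The differences were -2.08 ± 0.24 in iKO mice (interval -2.60 to -1.56, adjusted p = 4.1e-05) and -1.74 ± 0.28 in flox mice (interval -2.34 to -1.14, adjusted p = 0.000729). A second Itgax probe, A_52_P424887, was above background on all 7 colon arrays and no aged ileum array, so it was tested through colon alone. It did not pass (adjusted p = 0.185 in iKO and 0.731 in flox mice), and no difference is drawn from it. Itgam at A_52_P669155 was at -2.77, -2.58, -2.80 and -2.41 in aged iKO colon and at -2.86, -3.02 and -2.93 in aged flox colon, below every aged ileum array of the same genotype. It was 2.43-fold lower in iKO mice (-1.28 ± 0.16, adjusted p = 6.81e-05) and 1.68-fold lower in flox mice (-0.75 ± 0.18, adjusted p = 0.0087), and its other probe gave -1.43 ± 0.17 and -0.67 ± 0.19 (adjusted p = 4.55e-05 in iKO and 0.0194 in flox mice).

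The scavenger receptor genes and Cd14 did not follow. Cd163 was at -0.70, -0.03, -0.49 and -0.69 in aged iKO colon and at -0.46, -0.57 and -0.17 in aged flox colon. It was 1.48-fold higher than in ileum in iKO mice (0.57 ± 0.21, adjusted p = 0.0448) and differed by 0.37 ± 0.24 in flox mice (adjusted p = 0.263). Mrc1 was at -0.79, -0.20, -0.67 and -1.12 in aged iKO colon and at -0.51, -0.83 and -0.65 in aged flox colon, overlapping the ileum arrays, with differences of 0.28 ± 0.30 and 0.74 ± 0.34 (adjusted p = 0.471 in iKO and 0.119 in flox mice). Cd14 was at 2.02, 2.20, 2.0 and 1.73 in aged iKO colon and at 2.09, 2.08 and 1.99 in aged flox colon, a tighter range than in ileum. It differed by 0.28 ± 0.24 in iKO mice (adjusted p = 0.385) and was 1.87-fold higher in flox mice (0.91 ± 0.28, adjusted p = 0.0271).

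The 1 probe that passed as higher in each genotype stood against 25.1% of 29237 probes in iKO mice and 20.2% in flox mice, and in total 42.9% of all probes passed in iKO mice and 32.3% in flox mice. The members' median was -0.99 in iKO and -1.01 in flox mice, while the median over all probes was shifted to 0.10 and 0.12, so relative to all probes the members lay slightly further down. Higher calls made up 58.6% of all calls in iKO mice and 62.8% in flox mice, against 41.9% and 42.5% with normexp background correction, under which 9 and 10 member probes passed. Cd163 in iKO mice missed the threshold without any one of aged flox ileum replicate 4, aged iKO ileum replicates 1 and 2, aged flox colon replicates 1 and 3 and aged iKO colon replicates 2 and 3 (adjusted p from 0.0526 to 0.128). Cd14 in flox mice missed it without aged flox ileum replicate 3 or 4 or any flox colon array (adjusted p from 0.0568 to 0.103), Cd68 in iKO mice without aged iKO ileum replicate 4 or aged iKO colon replicate 3 (adjusted p of 0.0552 and 0.0566), and Itgam A_51_P103007 in flox mice without aged flox ileum replicate 1 or flox colon replicate 1 or 4 (adjusted p from 0.0515 to 0.0614). Ileum and colon were hybridised on separate slides. The 75th percentile was 1425.2 to 1750.6 intensity units on colon arrays, against 1131.6 to 1230.8 on aged ileum arrays. Tissue, slide set and this brightness therefore cannot be told apart.

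**Figure D3:**
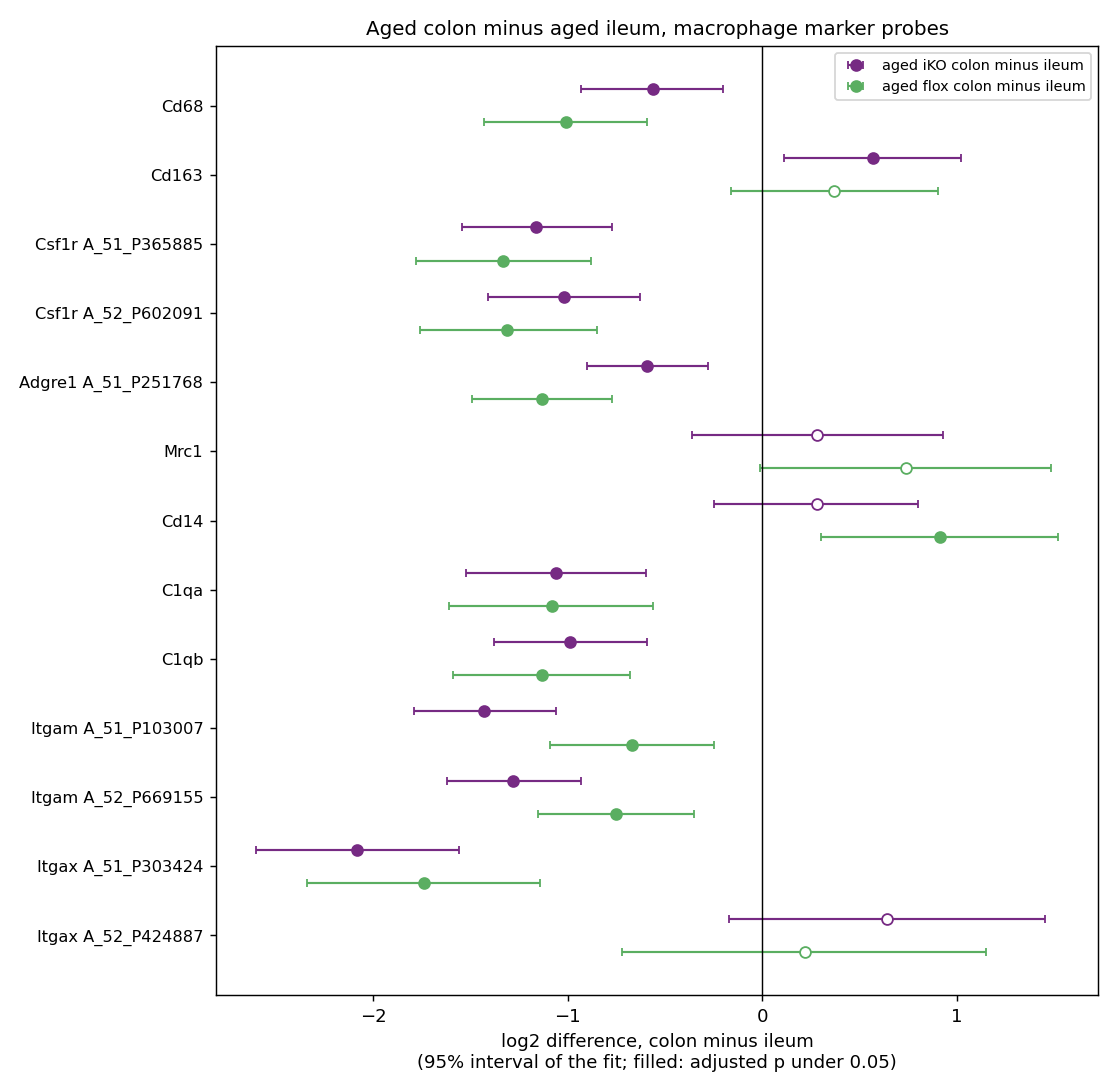
Tissue differences in aged mice (colon minus ileum, log2) of the 13 tested probes, with iKO above flox for each probe and bars for the 95% interval. Filled symbols passed at an adjusted p under 0.05. The 9 probes that passed as lower lie below 0 in both genotypes, with Itgax lowest at -2.08 and -1.74, and Cd14, Cd163 and Mrc1 lie above 0. The second Itgax probe is drawn as fitted, although no aged ileum array had it above background.

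Companion genes were mostly lower in colon too. Of 38 probes for macrophage receptors and companions, 24 were lower and 4 higher in colon in iKO mice, and 21 were lower and 2 higher in flox mice. Among all tested probes, 17.7% passed as lower in iKO and 12% in flox mice. Lyz2, the lysozyme of myeloid cells whose close relative Lyz1 is a Paneth cell gene, differed by -2.27 ± 0.14 in iKO and -2.12 ± 0.16 in flox mice (adjusted p = 3.99e-07 and 4.24e-06), and the array cannot be assumed to separate the pair. Mpeg1 differed by -1.64 ± 0.18 and -1.45 ± 0.20 (adjusted p = 2.56e-05 in iKO and 0.000338 in flox mice), and Tlr4, a lipopolysaccharide receptor, was higher by 1.92 ± 0.23 and 1.54 ± 0.27 (adjusted p = 5.79e-05 in iKO and 0.00132 in flox mice). Of 19 probes for the CSF1 axis and macrophage transcription factors, 9 passed as lower in iKO mice and 7 in flox mice. As higher, 1 passed in flox mice and none in iKO mice. Of the transcription factors, Maf differed by -3.67 ± 0.22 in iKO and -3.50 ± 0.26 in flox mice at the probe with the smallest p, and Irf8, which monocyte and dendritic cell development needs, by -1.71 ± 0.17 in iKO and -1.22 ± 0.19 in flox mice. Of 16 probes for inflammatory and alternative activation genes, 5 passed as lower and 2 as higher in iKO mice, with a median of -0.22. In flox mice 5 passed as lower and none as higher, with a median of -0.66. Among them the interferon-induced chemokine gene Cxcl9 differed by -4.92 ± 0.35 in iKO mice (adjusted p = 1.12e-06) and by -4.34 ± 0.40 in flox mice (adjusted p = 2e-05). Of 20 probes for genes of lysosomes and of dying-cell uptake, 8 passed as higher and 2 as lower in iKO mice and 6 as higher and 2 as lower in flox mice, where 25.1% and 20.2% of all probes passed as higher. Their medians were 0.34 in iKO and 0.09 in flox mice, against 0.10 and 0.12 over all probes. Among them Gas6, a bridging ligand for Axl and Mertk, was higher by 1.76 ± 0.10 in iKO and 1.22 ± 0.12 in flox mice, Apoe differed by -0.90 ± 0.18 in iKO and -1.14 ± 0.21 in flox mice, and the 2 probes of Ctsb passed in opposite directions.

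Probes of other cell types passed between the tissues as well, and the part of these cell types was not tested. Among all tested probes, 25.1% passed as higher and 17.7% as lower in iKO mice, and 20.2% and 12% in flox mice. Lists with few calls were not read as differences in those cells. T and natural killer cell probes were lower in colon in 12 of 14 cases in each genotype, with medians of -3.45 in iKO and -2.75 in flox mice, and their summed signal was 0.853 to 1.54 in aged iKO colon against 11 to 33.3 in aged iKO ileum, and 0.993 to 1.55 in aged flox colon against 9.54 to 19.5 in aged flox ileum. Dendritic cells and neutrophils carry Itgax and Itgam as well. Of 7 dendritic cell probes 3 were lower in colon in each genotype, with medians of -1.16 in iKO and -0.72 in flox mice, and their summed signal was 1.11 to 1.44 in aged iKO colon against 2.56 to 4.74 in aged iKO ileum, and 1.25 to 1.43 in aged flox colon against 1.98 to 3.65 in aged flox ileum. Of 5 neutrophil probes 3 were lower in iKO and 1 in flox mice, with summed signals of 0.351 to 0.847 in aged iKO colon against 0.661 to 1.43 in aged iKO ileum, and 0.339 to 0.708 in aged flox colon against 0.506 to 0.919 in aged flox ileum. Of 9 epithelial probes 5 were lower and 1 higher in iKO mice, and 4 were lower in flox mice. Mast cell and eosinophil probes passed as higher in 3 and as lower in 1 of 7 cases in iKO mice, and as higher in 1 and lower in 1 in flox mice, 1 of 7 B cell probes was higher in each genotype, and no endothelial or adipocyte probe passed. Smooth muscle and fibroblast probes passed as higher in 8 of 14 cases in iKO mice, and as higher in 2 and lower in 1 in flox mice, with summed signals of 243 to 391 in aged iKO colon against 141 to 230 in aged iKO ileum, and 290 to 338 in aged flox colon against 206 to 236 in aged flox ileum. The summed signal of the 10 macrophage genes was 9.01 to 12.3 in aged iKO colon and 10 to 11.6 in aged flox colon.

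No macrophage probe passed between SIRT1 iKO and flox mice in colon, aged ileum or young ileum, where 0.103%, 0.148% and 0.0359% of all tested probes passed by limma. Itgam had a higher mean in iKO mice in all 3, by 0.29, 0.82 and 0.59 at its brighter probe, and Adgre1 differed by -0.68 in aged ileum, but no adjusted p was under 0.05. The comparison asks what the SIRT1 mutation does to gene expression in each tissue and age. All young flox arrays were at position 1 of their slides and all young iKO arrays at position 2. In colon, flox arrays were at position 3 and iKO arrays at position 4. Genotype and array position therefore cannot be told apart in young ileum or in colon.

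Itgam at A_52_P669155 was at -1.64, -1.44, -1.06 and -1.30 in aged iKO ileum, against -1.80, -2.31 and -2.45 in aged flox ileum. In young ileum it was at -0.83, -1.14, -1.12 and -1.09 in iKO mice, against -1.34, -1.49, -2.40 and -1.29 in flox mice. Together with the colon values given above, every iKO array lay above every flox array of the same tissue and age at this probe. The share of all tested probes separated in this way was not counted, so this is only a description. The difference was 0.29 ± 0.13 in colon (adjusted p = 0.694), 0.82 ± 0.24 in aged ileum (interval 0.30 to 1.35, adjusted p = 0.236) and 0.59 ± 0.23 in young ileum (interval 0.10 to 1.07, adjusted p = 0.999). On slides that carried both genotypes it ran from 0.12 to 0.45 on 3 colon slides, was 0.87 on 1 aged ileum slide and ran from 0.17 to 1.32 on 4 young ileum slides, positive on each of them. The genotypes took different positions on each of these slides.

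At the other Itgam probe, A_51_P103007, values were -2.81, -2.72, -2.86 and -2.63 in aged iKO ileum, against -3.29, -4.10 and -3.88 in aged flox ileum, where 2 of 3 arrays were above background. The groups did not overlap there, and the difference of 1.00 ± 0.26, a 2.01-fold higher signal, had an adjusted p of 0.181. It was 0.25 ± 0.15 in colon and 0.44 ± 0.24 in young ileum, where arrays of the 2 genotypes overlapped. Neutrophils also carry CD11b: their 3 tested probes had a median difference of 0.58 in aged ileum with none passing, and the summed signal of 9 neutrophil genes was 0.661 to 1.43 in aged iKO ileum against 0.506 to 0.919 in aged flox ileum. Camp, Cxcr2 and Elane were above background on no ileum array, and the part of neutrophils in the Itgam values was not tested.

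Adgre1 in aged ileum, with the values given above, was lower on all 4 iKO arrays than on any of the 3 flox arrays. The difference was -0.68 ± 0.17, a 1.60-fold lower signal (interval -1.05 to -0.32, adjusted p = 0.166), and it was -0.83 on the 1 slide with both genotypes. In colon and young ileum the genotypes overlapped and differed by -0.14 ± 0.13 and -0.01 ± 0.16. The aged iKO arrays also had all 12 smooth muscle and fibroblast probes lower than the aged flox arrays on average, at a median of -0.35 with none passing, and 12 of 13 T and natural killer cell probes and 6 of 6 B cell probes higher on average, at medians of 0.46 and 0.85 with none passing. The part of these cell types in the Adgre1 values was not tested.

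None of the other probes had an unadjusted p under 0.05 between genotypes. In colon, 0 of 13 probes passed by limma, 0 had an unadjusted p under 0.05 and the median difference was -0.03, against 7.22% of 29167 probes with an unadjusted p under 0.05 and a median of -0.02 over all. In aged ileum, 0 of 12 passed, 3 had an unadjusted p under 0.05 and the median was -0.13, against 11.5% and 0.02 over all probes. In young ileum, 0 of 12 passed, 1 had an unadjusted p under 0.05 and the median was -0.01, against 4.19% and -0.01. With array quality weights, 4 of the 12 passed in aged ileum (Adgre1, Mrc1 and both Itgam probes) and so did 2684 of all probes, against 33 without weights.

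**Figure D4:**
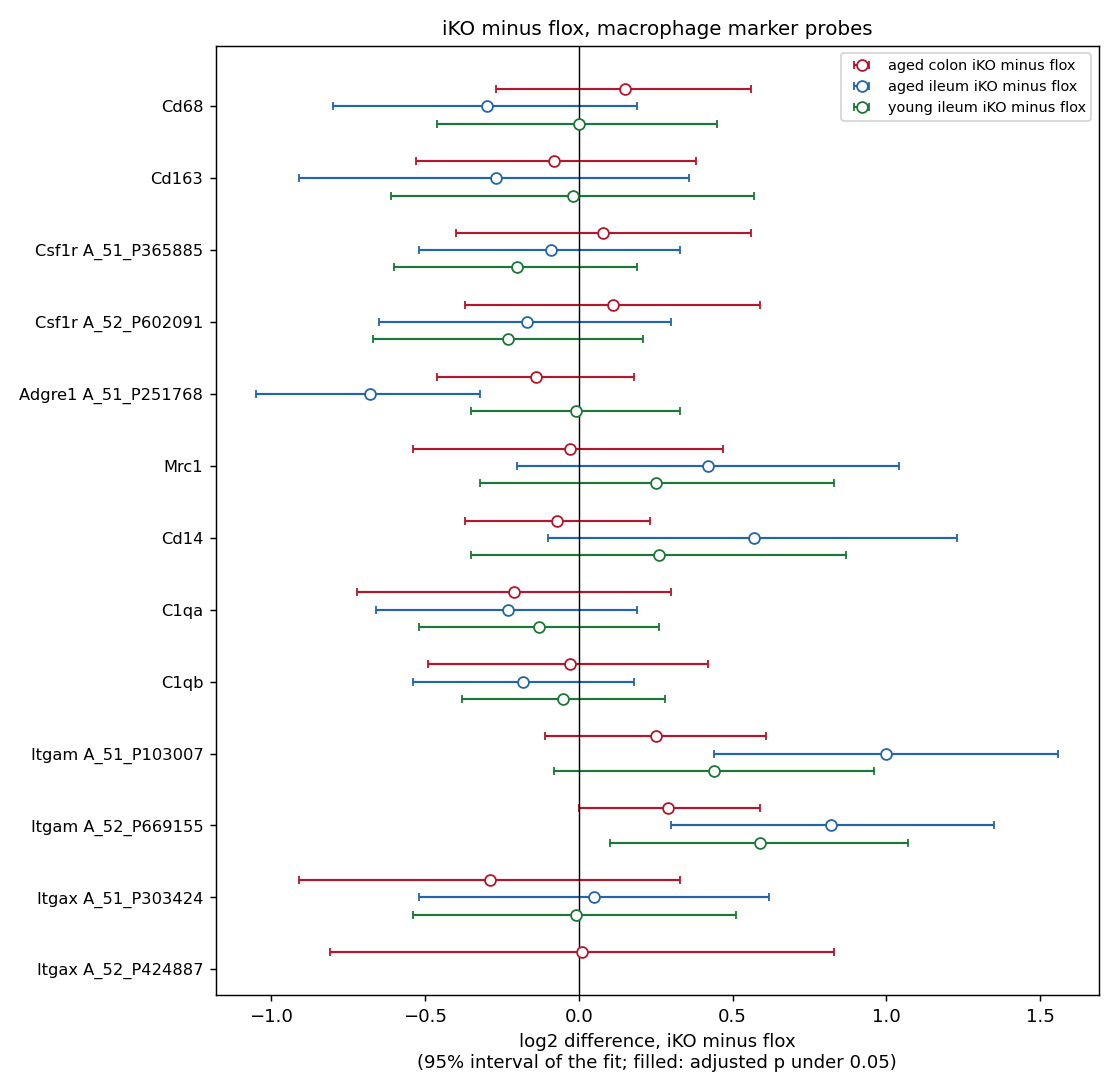
Genotype differences (iKO minus flox, log2) of the 13 probes tested in aged colon and the 12 tested in aged and young ileum, with bars for the 95% interval. All symbols are open because no probe passed. Both Itgam probes lie above 0 in all 3 comparisons, and Adgre1 lies at -0.68 in aged ileum.

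The companion genes gave 1 genotype call. Trem2 A_51_P269549 passed as lower in aged iKO than in aged flox ileum (adjusted p = 0.00863). It was above background on 1 of 4 aged iKO arrays against 3 of 3 aged flox arrays, the group through which it entered the test, so no size is drawn from it. The other probe, above background on all ileum arrays, differed by -1.10 ± 0.27 and did not pass (adjusted p = 0.156). Over other settings the adjusted p of the first probe ran from 0.000264 to 0.222, and it was 0.108 with the slide as a fixed factor, 0.222 with array position as a term and 0.0706 without aged flox replicate 4. In colon the 2 probes differed by -0.12 ± 0.25 and -0.05 ± 0.21, and in young ileum the brighter A_51_P269546 differed by -0.20 ± 0.25. No other probe of the 4 lists of macrophage genes passed between genotypes in any of the 3 comparisons. The inflammatory and alternative activation list had medians of 0.50 in colon, 0.39 in aged ileum and 0.33 in young ileum. Over all probes the medians were -0.02, 0.02 and -0.01. Single probes of the list went down to -0.29, -0.88 and -0.60, and no trend is drawn from it.

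The genotype difference was not shown to depend on age or on tissue for any macrophage gene. Of 12 probes, 0 passed the genotype by age term in limma, against 0% of all probes, and 1 had an unadjusted p under 0.05, against 2.63%. That probe was Adgre1, at -0.67 ± 0.23 (interval -1.17 to -0.18, adjusted p = 1). Of 13 probes, 0 passed the genotype by tissue term, against 0.0205%, and 2 had an unadjusted p under 0.05, against 6.06%. They were Itgam A_51_P103007 at -0.75 ± 0.25 and Adgre1 at 0.54 ± 0.22 (adjusted p = 0.726 and 0.8). Neither Trem2 probe passed the age term (adjusted p = 0.752 at A_51_P269549 and 1 at A_51_P269546), so the age increase of Trem2 in flox mice and not in iKO mice was not shown to differ between genotypes.

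Within groups, several of the 10 genes varied together from array to array. Deviations from the group mean over the 22 arrays correlated most closely between Cd68 and Csf1r (Pearson r = 0.85), Csf1r and C1qa (0.83), Cd68 and C1qa (0.76), Cd163 and Adgre1 (0.76), Csf1r and C1qb (0.72) and C1qa and C1qb (0.66). Adgre1 was close to C1qb (0.65), Cd68 (0.56) and C1qa (0.55) as well as to Cd163. Cd163 correlated at 0.60 with Mrc1, at 0.10 with Csf1r and at -0.23 with Itgax, and Itgax at 0.64 with Csf1r. All pairs share their arrays, scaling and group means, and these values are descriptions. Averaged over the 10 genes, young flox replicate 3 stood lowest at -0.44 below its group, and young flox replicate 2 stood highest at 0.25 above it.

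**Figure D5:**
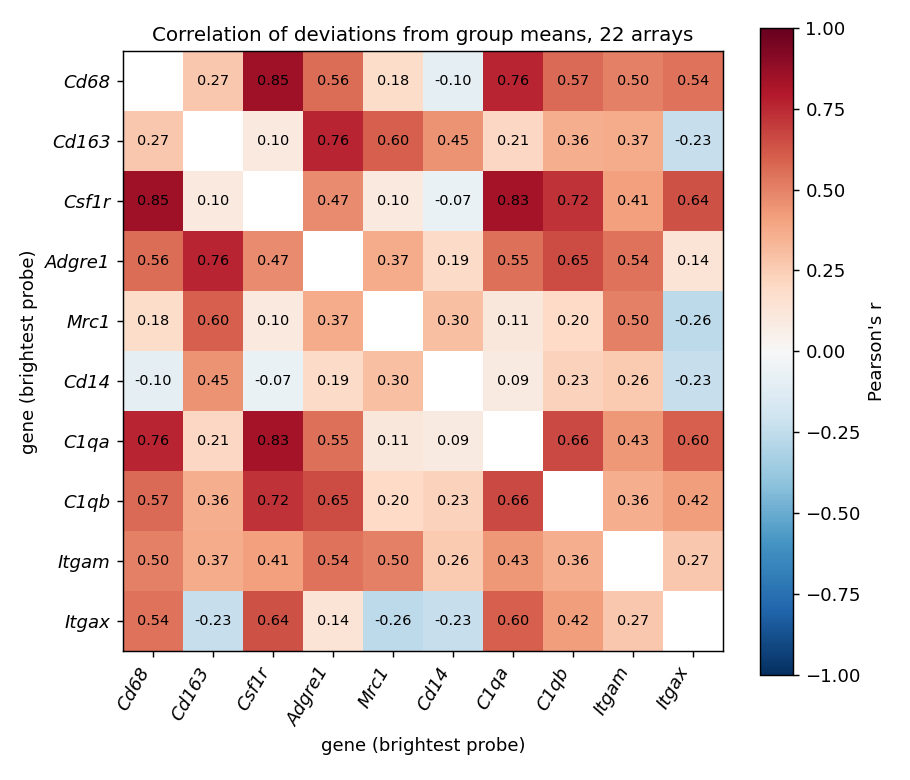
Pearson r between the brightest probes of the 10 genes, computed over 22 arrays from deviations from the group means. Cd68, Csf1r and C1qa are joined by the highest values, up to 0.85, and Cd163 pairs with Adgre1 at 0.76.

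Among 19700 probes ranked by their correlation with the mean of the 10 genes, treated in the same way over 22 arrays, the complement gene C1qc came first at r = 0.85. Of genes on none of the lists, close ones included Tbxas1 at 0.83, which encodes thromboxane synthase, Cxcr6 at 0.80, which encodes a chemokine receptor, Slamf8 at 0.79 and Tnip2 at 0.78.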

How the data were processed

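The data were total RNA of mouse ileum and colon, cleaned on a column after TRIzol extraction, labelled with Cy3 and hybridised to Agilent mouse arrays, 1 sample an array. Per the file headers, the deposited scanner files hold spot intensity values made with Agilent Feature Extraction 9.5, among them a background-corrected processed intensity. The value table deposited by the authors repeats the processed intensities and was not used further. Here control spots were left out, as were spots that the scanner software flagged as outliers (87 to 254 an array). The remaining spots of 1 probe were averaged, and each array was scaled by taking log2 of the processed intensity minus its 75th percentile.

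Probes that some group had above background (the scanner software's flag) on all of its arrays were fitted with limma 3.58.1 in R 4.3.3 (15 ileum, 7 colon and 14 aged arrays, in 3 fits and 9 comparisons), with Benjamini-Hochberg adjustment over all tested probes. Python 3.11.15 with pandas 2.3.3 and matplotlib 3.10.9 was used for the rest. The script was tested on simulated data. The members and the 13 gene lists were chosen with earlier results of these data known. All probes of the members were accounted for. Of the lists, up to 3 probes a direction were named by smallest p. Genes most like the members were named by correlation, and 1 of them is not reported here. The number of arrays limits the precision. Nothing states that arrays of 1 group came from separate mice, so p-values measure the spread between these samples, which may be technical. Alternatives were quantile normalization, normexp background correction with an offset of 50, other filters on dim probes, the brightest probe of each name, other moderation, array weights, slide or replicate number as a block, fewer groups in the fit, array position as a term and leaving out each array.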

Additional observations from a re-analysis of the deposited data

Results flagged for a closer look

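Over 53 sets of 4 arrays checked for a single distant value, 3 held one, and chance alone gives about 1 in 20. Adgre1 A_51_P251768 was at 0.32 in young flox ileum replicate 3, far below the other 3 arrays of that group, which lay at 0.84 to 0.87. The same array stood lowest in the mean of the 10 genes. C1qa A_51_P181451 was at 0.85 in aged iKO colon replicate 2, above the other 3 arrays at 0.48 to 0.52. Itgam A_52_P669155 was at -0.83 in young iKO ileum replicate 1, above the other 3 arrays at -1.14 to -1.09.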

How the results depend on the processing

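The counts of macrophage probes that passed between genotypes stayed at 0 in colon, aged ileum, young ileum and both interaction terms under every alternative run, except for 4 probes in aged ileum with array weights (Adgre1 -0.69, Mrc1 1.06, Itgam 1.02 and 1.10). The 4 age calls in iKO mice became 0 with no filter on dim probes, 1 with the slide as a fixed factor and 2 with only the groups in the contrast, and 0 to 5 without single arrays (0 without aged iKO replicate 4, 1 without young iKO replicate 3 or aged iKO replicate 1, 2 without aged iKO replicate 3). The 3 age calls in flox mice became 0 with no filter, 10 with array weights, 1 with the slide as a fixed factor (Adgre1, none of the 3) and 1 with only the groups in the contrast, and 0 to 4 without single arrays (0 without aged flox replicate 1 or 4, 1 without young flox replicate 1). Runs without a filter tested more probes, and runs without an array had fewer samples. The cause of these and the other changes was not tested. The 10 tissue calls were 8 to 10 in iKO and 8 to 11 in flox mice under the other settings. Of the fits of single macrophage probes, 2552 stayed on the same side of the threshold, and the uncalled among them moved by less than the spread. Another 78 lost a call, 28 gained one, 13 moved by more than the spread and none that was called changed sign. Uncalled fits could change sign within the 2552. Itgax A_51_P303424 in aged ileum (iKO minus flox) went from 0.05 to -0.05 with the slide as a fixed factor. Among listed genes, Siglec1 in iKO mice turned to -0.13 with normexp correction, and Krt8 turned to 0.02 in iKO and 0.07 in flox mice with quantile normalization (colon minus ileum).

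Over all probes, the aged ileum genotype calls were 33, against 2684 with array weights, 11 with the slide fixed, 21 with the replicate block, 18 with only these groups and 6 with array position as a term. The age calls were 2454 in iKO mice, against 990 with no filter and 1569 with only these groups, and 1783 in flox mice, against 546, 812, 670 with the slide fixed and 6070 with array weights. The colon genotype calls were 30, against 55 with normexp correction, 56 with trended robust moderation and 1 with the slide fixed or the replicate block. The tissue calls were 12536 in iKO and 9429 in flox mice, against 19759 and 15987 with no filter. The young genotype calls were 8, against 14 with trended robust moderation and 5 with only these groups, and the genotype by tissue calls were 6, against 0 to 10. Leaving out single arrays moved the aged ileum genotype calls to 56 (young flox replicate 3), 10 (aged flox replicate 4), 19 (aged flox 3), 17 (aged iKO 3) and 19 (aged iKO 4), and the colon genotype calls to 7 to 18 without any array but iKO replicate 3. It moved the iKO age calls to 1024 (young iKO 3), 1113, 1207 and 1452 (aged iKO 1, 3 and 4), and the flox age calls to 941, 1178 and 717 (young flox 1, 3 and 4) and 707, 1176 and 597 (aged flox 1, 3 and 4).

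The labels do not say whether replicate numbers pair samples, and they were not taken to: deviations of same-numbered arrays correlated at -0.34 to 0.36 over 21 pairs in ileum, above 0.1 in 14 of them, -0.12 to 0.10 over 3 in colon and -0.03 to 0.13 over 7 across tissues. With the replicate block, 5 age calls in iKO mice (Itgax 0.74 added, adjusted p = 0.0437), 3 in flox mice, 8 tissue calls in iKO mice (Cd68 -0.56 and Cd163 0.57 lost, adjusted p = 0.0713 and 0.0604), 10 in flox mice and 0 genotype calls were counted.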
